A study of Mus musculus with 18 samples.

Results

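The genes described here are 10 C-type lectin receptors of mouse bone marrow-derived macrophages (BMMs), chosen by name from the 38887 genes of the count tables: Clec4a1, Clec4a3, Clec4d, Clec4e, Clec4n, Clec5a, Clec7a, Clec10a, Clec12a and Mgl2. Poly(A) RNA was sequenced from BMMs of 3 genotypes, untreated or after 4 h with 100 ng/ml of the bacterial cell wall component lipopolysaccharide (LPS), with 3 libraries in each of the 6 groups. The study asked how the glucocorticoid-induced leucine zipper (GILZ, gene Tsc22d3), a protein induced by glucocorticoids, bears on macrophage activation. All BMMs came from adult female mice on the C57BL/6J background, and bone marrow of the femur and tibia was cultured with macrophage colony-stimulating factor. WT mice carried Lyz2-Cre, a Cre recombinase inserted at the Lyz2 locus and active in myeloid cells. GILZ KO mice carried a floxed Gilz exon together with Lyz2-Cre. GILZ TG mice carried a Gilz cDNA at the ROSA26 locus behind a floxed stop cassette, together with Lyz2-Cre. By the methods every group, controls included, carried the Cre, and the number of Cre alleles per genotype was not given. The methods describe each replicate as a separate preparation from 3 mice per group, and do not say whether a replicate number links the untreated and the LPS library of one mouse.

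C-type lectin receptors are membrane proteins that bind glycans, lipids or crystals through a lectin-like domain, and on macrophages they serve the recognition of fungi, mycobacteria and dead cells. Clec7a (Dectin-1), Clec4e (Mincle), Clec4d, Clec4n (Dectin-2) and Clec5a are activating receptors that engage the kinase Syk, either through their own tail (Clec7a) or through the adaptors Fcer1g and Tyrobp, and pass the signal to Card9, Bcl10 and Malt1. Clec12a carries an inhibitory tail motif, Clec4a1 and Clec4a3 belong to the DCIR family, and Clec10a and Mgl2 are paralogous galactose-type lectins found on alternatively activated macrophages.

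Libraries held between 14583055 and 38557029 assigned counts. Tsc22d3 differed from WT by a log2 fold change of -2.74 in GILZ KO and 2.63 in GILZ TG without treatment and by -0.69 and 4.07 after LPS. After LPS, Tsc22d3 measured 2.50 to 3.28 TPM in GILZ KO and 4.56 to 5.81 TPM in WT, which did not overlap, and the difference was not called by edgeR (adjusted p = 0.150) but was by DESeq2 (-0.70, adjusted p = 0.00605). Lyz2, whose reading frame the Cre insertion interrupts, measured 6766 to 15400 TPM in the 6 WT libraries and 17.2 to 70.3 TPM in all GILZ KO and GILZ TG libraries. In any comparison with WT, the GILZ genotype and the state of the Lyz2 locus therefore cannot be told apart, while GILZ KO and GILZ TG differed in Lyz2 by less than the spread between libraries (log2 difference -0.02, adjusted p = 0.986 untreated, and 0.50, adjusted p = 0.428 after LPS, edgeR). Tnf differed by 4.28 to 4.59 and Nfkbia by 2.47 to 2.52 between LPS and untreated BMMs of the 3 genotypes, and Il1b by 9.96 to 10.1. Macrophage markers (6 of 6 genes above 0 in every library) summed to between 2928 and 3582 TPM, a unit that scales reads for transcript length and library total. GILZ TG replicates 1 and 2 stood apart by markers of other cells: neutrophil lineage markers summed to 188 and 484 TPM untreated and 218 and 517 TPM after LPS, against 69.0 and 83.6 TPM in GILZ TG replicate 3 and 20.7 to 77.4 TPM in all WT and GILZ KO libraries. Stromal markers summed to 80.2 to 115 TPM in those 4 libraries, against 4.88 to 21.8 TPM in all others, and B lineage markers to 49.2 to 112 TPM, against 11.8 to 19.5 TPM in GILZ TG replicate 3 and 4.20 to 15.02 TPM in WT and GILZ KO. Of 10 neutrophil lineage markers 6 to 10 were above 0, of 7 stromal markers 5 to 7 and of 6 B lineage markers 2 to 6. Ly6g was at 0 in all WT and GILZ KO libraries. Markers of T and NK cells summed to at most 0.44 TPM (0 to 3 of 6 genes above 0), and dendritic cell markers, which include the LPS-responsive Ccr7 and Ccl17, to 0.24 to 0.9 TPM untreated and 12.3 to 81.8 TPM after LPS (2 to 8 of 8 genes above 0).

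**Figure D1:**
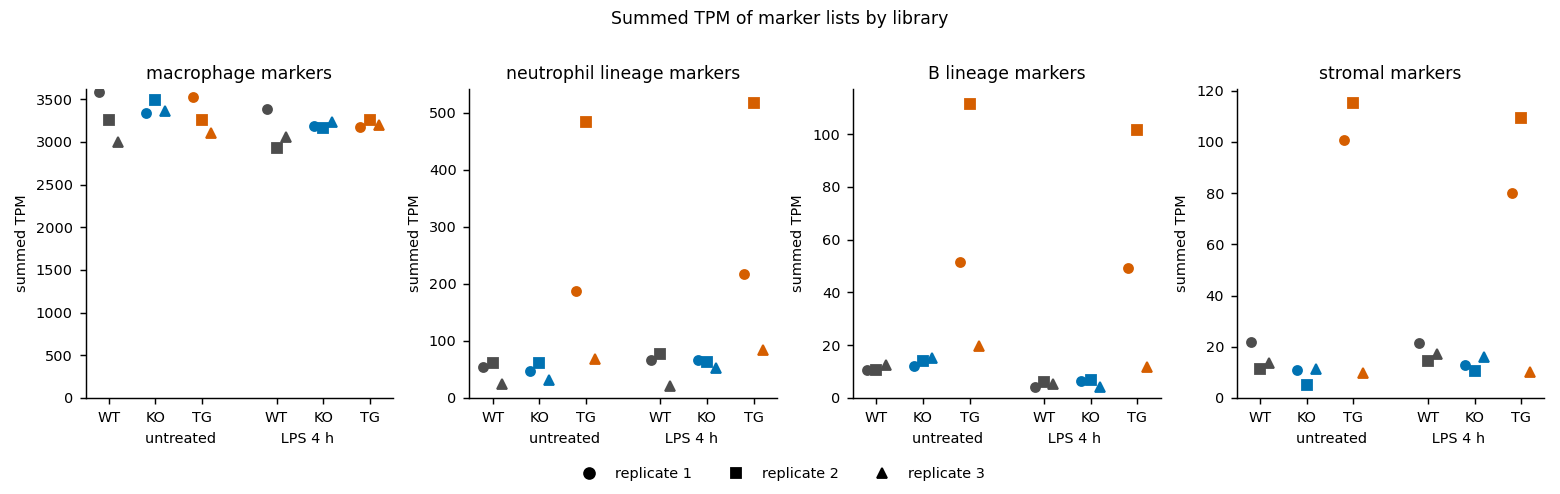
Summed TPM of macrophage, neutrophil lineage, B lineage and stromal marker lists in each of the 18 libraries, by genotype and treatment. Macrophage sums stay between 2928 and 3582 TPM, while GILZ TG replicates 1 and 2 are highest for the other lists, with stromal sums of 80.2 to 115 TPM against at most 21.8 TPM elsewhere.

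All members lie on 2 chromosomes (coordinates in GRCm38). Chromosome 6 holds 8 of them. Clec4a1 (122921848-122934619), Clec4a3 (122952515-122969875), Clec4n (123229843-123247021), Clec4d (123262111-123275265) and Clec4e (123281789-123289870, minus strand) sit in one stretch, Clec12a (129342691-129365303) and Clec7a (129461591-129472779, minus strand) in a second, and Clec5a (40574894-40585821, minus strand) far from both. Clec7a is annotated as a polymorphic pseudogene in the gene annotation read here, and it had counts in all libraries. Mgl2 (70130329-70137550) and Clec10a (70156197-70170834) are neighbours on chromosome 11. The promoter windows of the members that differed between genotypes (Clec7a and Clec12a) and of the adjacent pair Clec4d and Clec4e, whose LPS values were of different size, are shown to set them side by side. Each is the 250 bases before a RefSeq transcript start in GRCm38.p6, read 5′ to 3′ on the strand of the gene, with motif matches in capitals.
Clec7a, chr6:129472780-129473029, minus strand: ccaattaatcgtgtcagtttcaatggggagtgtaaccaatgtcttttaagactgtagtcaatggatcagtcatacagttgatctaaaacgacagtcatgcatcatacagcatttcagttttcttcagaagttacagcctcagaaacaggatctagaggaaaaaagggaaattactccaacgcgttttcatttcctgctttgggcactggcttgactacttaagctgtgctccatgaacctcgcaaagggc
Clec12a, chr6:129349994-129350243, plus strand: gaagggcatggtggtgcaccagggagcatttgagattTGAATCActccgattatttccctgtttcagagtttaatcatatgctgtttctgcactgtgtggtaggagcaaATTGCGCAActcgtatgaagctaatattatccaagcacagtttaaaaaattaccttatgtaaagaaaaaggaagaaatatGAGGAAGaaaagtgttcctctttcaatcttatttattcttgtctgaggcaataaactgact
Clec4e, chr6:123289872-123290121, minus strand: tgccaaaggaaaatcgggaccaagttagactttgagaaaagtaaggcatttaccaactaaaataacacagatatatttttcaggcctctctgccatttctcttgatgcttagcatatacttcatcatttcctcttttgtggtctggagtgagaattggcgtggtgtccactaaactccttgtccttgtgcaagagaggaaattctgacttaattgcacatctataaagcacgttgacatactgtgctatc
Clec4d, chr6:123261857-123262106, plus strand: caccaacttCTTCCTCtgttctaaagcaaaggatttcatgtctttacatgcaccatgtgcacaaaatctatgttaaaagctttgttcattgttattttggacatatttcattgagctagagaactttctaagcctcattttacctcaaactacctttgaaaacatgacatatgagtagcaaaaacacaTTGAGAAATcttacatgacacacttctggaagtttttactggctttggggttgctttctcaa

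The motifs, searched on both strands, were PU.1 (GAGGAAG), C/EBP (TTNNGNAAT), AP-1 (TGANTCA) and the consensus motifs of NF-kB and ISRE. RefSeq windows were found for 8 members, 10 windows in all. The Clec12a window, which precedes a start inside the annotated gene, held AP-1 at 213 to 207, C/EBP at 141 to 133 and PU.1 at 61 to 55 bases before the start. In Clec4d, C/EBP matched at 62 to 54 and PU.1 at 241 to 235 bases before the start. PU.1 also matched in Clec4a1 and at 2 places in Clec5a, and none of the 5 motifs matched in the windows of Clec4e, Clec7a, Clec4a3 and Mgl2. Among 32851 windows in the table, PU.1 was found in 10.6%, C/EBP in 10.2%, NF-kB in 7.25%, AP-1 in 6.75% and ISRE in 2.98%, and a match is a description of the letters only.

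Untreated WT BMMs expressed the members over a wide range. Clec4d, the receptor that pairs with Mincle, was highest at 959 ± 24.9 TPM (mean ± SD, n = 3, as for all levels below). Clec4e followed at 432 ± 137 TPM and Clec12a at 373 ± 17.3 TPM, and their libraries overlapped. Clec5a (DAP12-coupled MDL-1) stood at 111 ± 18.2 TPM, above every remaining member. Clec7a at 26 ± 4.42 TPM and Clec4a1 at 25.1 ± 1.68 TPM overlapped, as did Clec10a at 16.2 ± 5.08 TPM and Clec4a3 at 13.2 ± 0.939 TPM. Clec4n was low at 8.87 ± 1.84 TPM, with 116 to 167 counts per library. Mgl2 was barely detected, at 0.503 ± 0.529 TPM in untreated WT and between 0.04 and 1.08 TPM over all 18 libraries. It did not pass the filter on low counts, so 9 of 10 members were tested. Only Clec10a and Mgl2 among the members had estimated counts that were not whole, which is how reads shared between paralogs are split, and their values are uncertain to that extent.

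**Figure D2:**
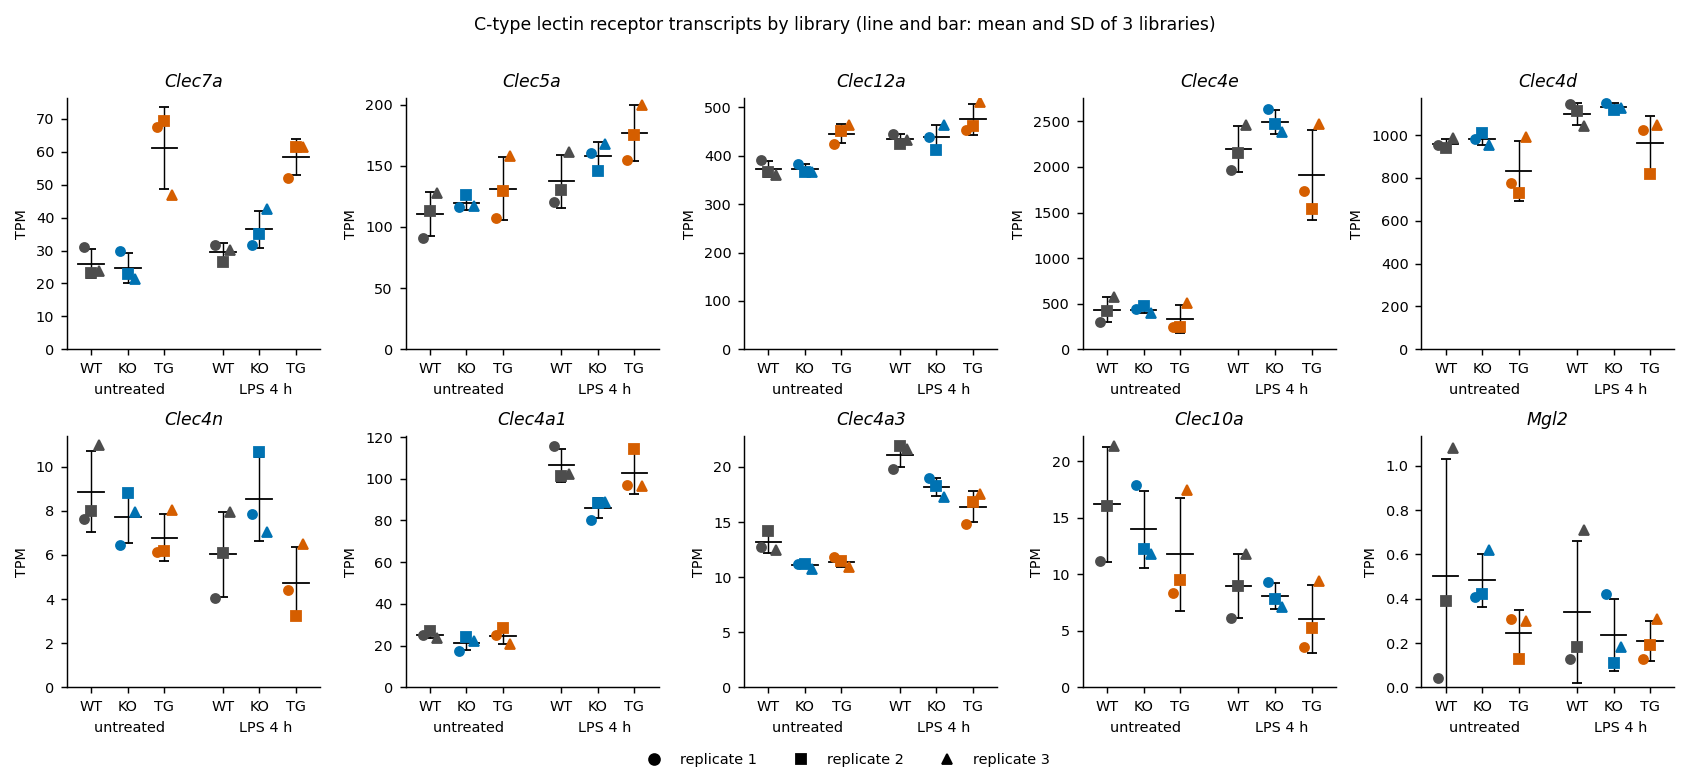
TPM of the 10 receptors in each of the 18 libraries, untreated and after LPS, for WT, GILZ KO and GILZ TG; points are libraries with a marker shape for each replicate number, and lines with bars give mean ± SD (n = 3). Clec7a is higher in all 6 GILZ TG libraries (46.9 to 69.3 TPM) than in all WT and GILZ KO libraries (21.5 to 42.5 TPM), and Clec4e is higher in every LPS library than in every untreated one.

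Genotypes were compared within each treatment by the edgeR quasi-likelihood test, and a gene was called at an adjusted p under 0.05 over all genes tested. The comparisons of GILZ TG with WT and of GILZ KO with GILZ TG share the GILZ TG libraries, and each genotype enters 2 comparisons, so their values are set side by side and not taken as support for each other. Of 9 tested members, Clec7a and Clec12a were called higher in untreated GILZ TG than in WT, where 0.642% of all 12621 genes were called. The same receptors were called lower in untreated GILZ KO than GILZ TG, against 4.94% of all genes. After LPS, 1 member, Clec7a, was called higher in GILZ TG than in WT, against 0.460% of 12164 genes, and lower in GILZ KO relative to GILZ TG, against 2.60%. The median log2 fold change of the 9 members for GILZ TG against WT was -0.22 untreated and -0.19 after LPS, against -0.004 and 0.007 for all genes. No member was called between GILZ KO and WT, where 0.0951% of genes were called untreated and 0.0822% after LPS. At an unadjusted p under 0.05, edgeR gave 1 member untreated (Clec4a3) and 2 after LPS (Clec4a1 and Clec7a) in that comparison, and DESeq2 called 0 in both. Among all genes, 1211 of 12621 untreated and 1171 of 12164 after LPS had such a p in edgeR.

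Clec7a, the beta-glucan receptor Dectin-1, was the member that differed most between genotypes. Without treatment it measured 31.1, 23.3 and 23.7 TPM in WT replicates 1 to 3 and 30.0, 22.9 and 21.5 TPM for GILZ KO. In GILZ TG it measured 67.5, 69.3 and 46.9 TPM. Every GILZ TG library lay above every WT and GILZ KO library, which overlapped with each other. The ratio of mean TPM was 2.36 for GILZ TG over WT, with a log2 fold change of 1.21 (SE 0.15, adjusted p = 0.00708, edgeR). GILZ KO was lower than GILZ TG by a log2 fold change of -1.41 (SE 0.15, adjusted p = 0.00218, edgeR). GILZ KO differed from WT by -0.20 (SE 0.15, adjusted p = 0.701, edgeR), within the spread between libraries.

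After LPS, Clec7a measured 31.7, 26.4 and 30.3 TPM in WT and 31.71, 35 and 42.5 TPM for GILZ KO. The GILZ TG libraries held 52.0, 61.4 and 61.5 TPM. GILZ TG again lay above both other genotypes in every library, while WT and GILZ KO overlapped at their ends. The log2 fold change was 1.01 for GILZ TG against WT (SE 0.11, adjusted p = 0.00219, edgeR) and -0.76 for GILZ KO against GILZ TG (SE 0.11, adjusted p = 0.00851, edgeR). For GILZ KO against WT it was 0.25 (SE 0.11, adjusted p = 0.516, edgeR). Clec7a was called for GILZ TG against WT in all 9 alternative settings that use every library, with 1.20 to 1.22 untreated and 0.96 to 1.01 after LPS. Leaving out WT replicate 2 ended the call in the untreated comparison (1.13, adjusted p = 0.0577, edgeR), and leaving out GILZ KO replicate 1 did so for GILZ KO against GILZ TG after LPS (-0.67, adjusted p = 0.0603, edgeR).

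The markers of neutrophil, B lineage and stromal cells were highest in GILZ TG replicates 1 and 2, and in bulk RNA fewer cells of a type and less RNA per cell cannot be told apart. Neutrophils also carry several of these receptors. In GILZ TG replicate 3 the stromal sum was 9.75 TPM untreated and 10.3 TPM after LPS, against 4.88 to 21.8 TPM and 10.4 to 21.5 TPM in WT and GILZ KO. Its neutrophil lineage sums of 69.0 and 83.6 TPM were above those of every WT and GILZ KO library of the same treatment (at most 61.4 and 77.4 TPM), as were its B lineage sums of 19.5 and 11.8 TPM (at most 15.02 and 6.72 TPM). Clec7a in that replicate, at 46.9 and 61.5 TPM, was also above every WT and GILZ KO library of its treatment. So was Clec12a, at 464 and 512 TPM, its highest values among the GILZ TG libraries of each treatment. The part of these markers in the Clec7a and Clec12a results was not tested. With replicates 1 and 2 left out, an alternative chosen after seeing the data, the lone GILZ TG library is assumed to vary like the other groups. Clec7a then differed between GILZ TG and WT by 0.93 untreated (adjusted p = 0.128, edgeR) and 1.13 after LPS (adjusted p = 0.0106, edgeR). Between GILZ KO and GILZ TG, Clec7a then differed by -1.13 untreated (adjusted p = 0.0509, edgeR) and -0.89 after LPS (adjusted p = 0.0437, edgeR). The number of members called fell from 2 to 0 in both untreated comparisons and stayed at 1 in both LPS comparisons.

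Clec12a, the inhibitory receptor for uric acid crystals, was the other member called, with a small difference. Untreated levels were 392, 366 and 359 TPM for WT and 384, 367 and 366 TPM for GILZ KO. In GILZ TG they were 424, 450 and 464 TPM. The 3 GILZ TG libraries lay above all others. The log2 fold change against WT was 0.27 (SE 0.05, adjusted p = 0.0397, edgeR), a ratio of mean TPM of 1.20, and GILZ KO against GILZ TG gave -0.31 (SE 0.05, adjusted p = 0.0114, edgeR). The call against WT held in 5 of 10 alternative settings, with adjusted p up to 0.157, and in 1 of 6 fits that left out a library, the one without GILZ TG replicate 3. The call of GILZ KO against GILZ TG held in 10 of 10 and in 3 of 6. After LPS, the level of Clec12a was 435 ± 11.2 TPM for WT, 438 ± 26.6 TPM for GILZ KO and 476 ± 31.7 TPM for GILZ TG, and GILZ TG against WT gave 0.14 (adjusted p = 0.417, edgeR). With GILZ TG replicates 1 and 2 left out the untreated difference from WT was 0.30 (adjusted p = 0.245, edgeR).

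**Figure D3:**
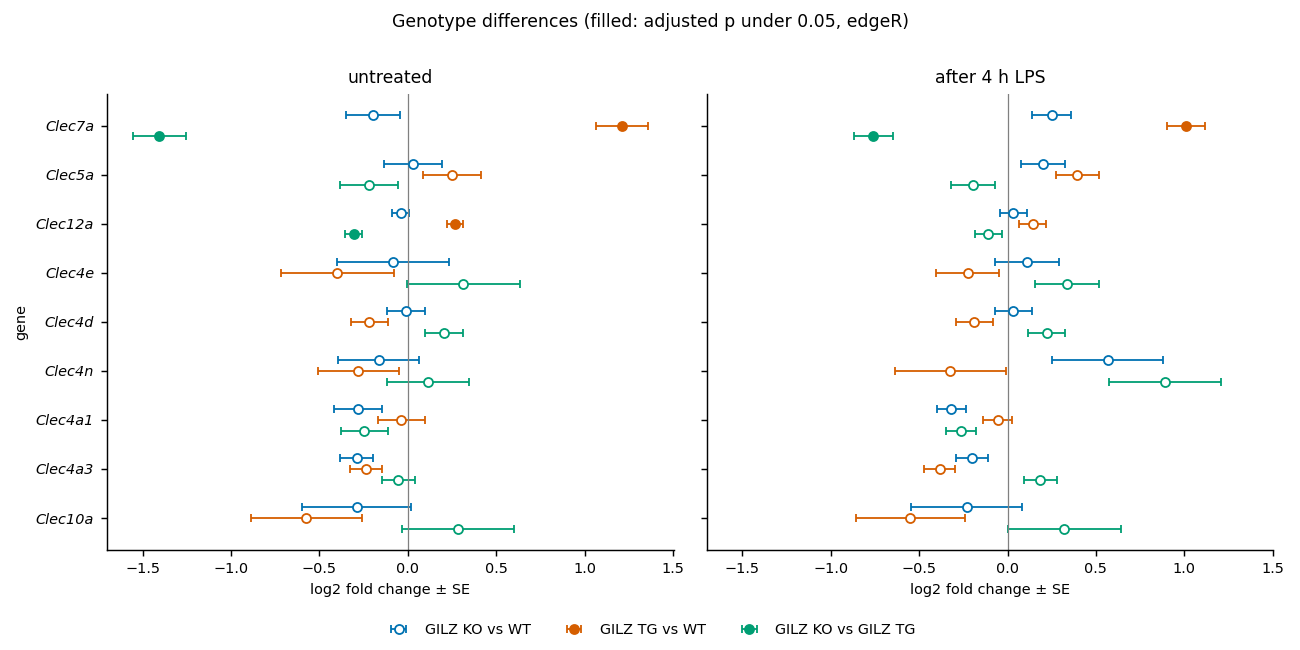
Log2 fold changes (± SE, edgeR on TMM-scaled counts) of the 9 tested receptors for each pair of genotypes, untreated and after LPS; filled symbols mark an adjusted p under 0.05. Clec7a stands at 1.21 and 1.01 for GILZ TG against WT, Clec12a at 0.27 untreated, and no receptor is filled for GILZ KO against WT.

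The remaining receptors were not called between genotypes with all libraries of a treatment and the filter on low counts. The activating pair Clec4e and Clec4d varied with the library. Clec4e in untreated GILZ TG was 245 and 240 TPM in replicates 1 and 2 but 513 TPM in replicate 3, against WT values of 300 to 574 TPM and GILZ KO values of 393 to 475 TPM. Clec4d showed the same split, with 775 and 728 TPM against 991 TPM for GILZ TG replicate 3, and ranges of 938 to 986 TPM for WT and 952 to 1008 TPM for GILZ KO. The lower values were those of the libraries rich in markers of other cells, and the part of those markers in the result was not tested. Without GILZ TG replicate 3, Clec4d was called lower in untreated GILZ TG than in WT (-0.37, adjusted p = 0.0107, edgeR), and Clec4e and Clec4d were called in the untreated comparison of GILZ KO with GILZ TG. Without the same replicate after LPS, Clec4e and Clec4a3 were called lower in GILZ TG against WT (-0.52 and -0.45), and Clec4e and Clec4n were called higher in GILZ KO against GILZ TG (0.63 and 1.22).

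Clec4n, the alpha-mannan receptor Dectin-2, held after LPS 3.22 to 6.51 TPM in GILZ TG and 7.03 to 10.7 TPM for GILZ KO. Those ranges did not overlap, yet on 63 to 106 counts per library the difference of 0.89 was not called (SE 0.32, adjusted p = 0.152, edgeR). Clec5a after LPS was 155, 175 and 200 TPM in GILZ TG and 121, 130 and 161 TPM in WT, which overlap (0.40, SE 0.12, adjusted p = 0.177, edgeR). Its level was highest in replicate 3 of both genotypes. Without the filter on low counts, Clec5a was called for GILZ TG against WT after LPS (adjusted p = 0.0447, edgeR). Clec4n was then called for GILZ KO against GILZ TG after LPS (adjusted p = 0.0497, edgeR).

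In the DCIR family, Clec4a3 after LPS was 14.8, 16.9 and 17.6 TPM in GILZ TG and 19.8, 21.9 and 21.6 TPM in WT. All 3 GILZ TG libraries were below all WT libraries, and the difference of -0.38 missed the threshold (SE 0.09, adjusted p = 0.0979, edgeR). Clec4a3 of GILZ KO was also below WT in every library, at 17.3 to 19.0 TPM after LPS and 10.8 to 11.2 TPM against 12.5 to 14.2 TPM untreated (adjusted p = 0.520 and 0.403, edgeR). Clec4a1 after LPS was 80.2, 88.5 and 88.9 TPM in GILZ KO, below the 101 to 116 TPM of WT and the 96.5 to 114 TPM of GILZ TG (adjusted p = 0.268 and 0.117, edgeR). Neither receptor was called in these fits. With all 18 libraries in one fit, Clec4a3 was called lower in GILZ TG than in WT after LPS (adjusted p = 0.0171, edgeR). The galactose-type lectin Clec10a ranged from 8.32 to 21.3 TPM untreated with all genotypes overlapping, and Mgl2 was compared by its levels alone.

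LPS and untreated BMMs were compared within each genotype in one edgeR fit over all 18 libraries, scaled by TMM, a method that assumes most genes do not change. On this scale 7 of 9 tested members were called in WT, 8 in GILZ KO and 7 in GILZ TG, all higher after LPS. In the background, 68.6%, 68.5% and 68.7% of 13169 genes were called, and 33.5%, 33.2% and 33.6% were called higher. The median of the 9 members was 0.87, 1.13 and 0.85 in WT, GILZ KO and GILZ TG, against -0.02 for all genes in each genotype. The scale mattered for LPS: on log2(TPM + 0.1) the median of all genes was -0.62, -0.64 and -0.62, and the share of called genes that were higher dropped from 48.9%, 48.4% and 48.9% to 19.8%, 18.8% and 19.4%. On log2(TPM + 0.1), limma called 5, 6 and 5 of 9 members in WT, GILZ KO and GILZ TG. Clec10a was called lower in WT and GILZ TG, and every other call was higher. Among all 13169 genes limma called 2119, 2017 and 2056 higher and 8568, 8694 and 8568 lower. Both scales are therefore given below.

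Clec4e, which binds the mycobacterial cord factor, rose most in each genotype. In WT it went from 300, 421 and 574 TPM to 1968, 2159 and 2462 TPM, in GILZ KO from 393 to 475 TPM to 2380 to 2635 TPM, and in GILZ TG from 240 to 513 TPM to 1534 to 2473 TPM. No LPS library overlapped an untreated one, and Clec4e replaced Clec4d as the highest member in all 3 genotypes. The log2 fold change was 3.03, 3.20 and 3.20 in WT, GILZ KO and GILZ TG (SE 0.31 in each, adjusted p at most 1.45e-07, edgeR), and 2.39, 2.52 and 2.59 on log2(TPM + 0.1).

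The DCIR family genes followed. Clec4a1 rose from 25.2, 26.8 and 23.5 TPM to 116, 101 and 102 TPM in WT, a ratio of mean TPM of 4.23, with ratios of 4.03 in GILZ KO and 4.16 in GILZ TG. Its log2 fold change was 2.71, 2.65 and 2.69 (SE 0.12 in each, adjusted p at most 2.93e-12, edgeR) and 2.08, 2.02 and 2.06 on log2(TPM + 0.1). Clec4a3 rose by 1.32, 1.38 and 1.16 (adjusted p at most 1.29e-09, edgeR), and by 0.68, 0.71 and 0.52 on log2(TPM + 0.1). For both genes the LPS libraries lay above the untreated ones in every genotype, and both were called on both scales.

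A further group of receptors rose on the TMM scale by amounts near or above the shift between the scales. Clec5a rose by 0.99, 1.13 and 1.13 in WT, GILZ KO and GILZ TG, and by 0.31, 0.40 and 0.44 on log2(TPM + 0.1), where WT missed the threshold (adjusted p = 0.0582, limma). Clec12a rose by 0.87, 0.92 and 0.74, and by 0.22, 0.23 and 0.09 on log2(TPM + 0.1), where GILZ TG missed it (adjusted p = 0.158, limma). Clec4d rose by 0.83, 0.84 and 0.85 on the TMM scale, while on log2(TPM + 0.1) its differences of 0.20, 0.21 and 0.22 were not called (adjusted p = 0.081, 0.0668 and 0.0564, limma). Clec4d, 1.15 to 1.16 times its untreated mean TPM, and Clec4e, 5.08 to 5.75 times, are adjacent genes.

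Clec7a was called after LPS in all 3 genotypes on one scale and in GILZ KO alone on the other. On the TMM scale it was called higher after LPS by 0.74 in WT (SE 0.14), 1.16 in GILZ KO (SE 0.15) and 0.53 in GILZ TG (SE 0.14), with adjusted p of 0.0002, 2.15e-06 and 0.00235 (edgeR), but on log2(TPM + 0.1) the direction in GILZ TG turned. There the differences were 0.19 (adjusted p = 0.305), 0.56 (adjusted p = 0.00591) and -0.05 (adjusted p = 0.778, limma), and the response was not called different between genotypes on either scale. Relative to the median of all genes, Clec7a in GILZ TG stood at 0.55 on the TMM scale and 0.57 on log2(TPM + 0.1). Its libraries overlapped between treatments in WT and GILZ TG and were apart in GILZ KO, by 31.7 against 30.0 TPM at the nearest ends.

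Clec4n and Clec10a were not called higher in all 3 genotypes on either scale. Clec4n was called higher after LPS in GILZ KO on the TMM scale (0.87, SE 0.30, adjusted p = 0.0180, edgeR), but the value there on log2(TPM + 0.1) was 0.13 (adjusted p = 0.664, limma). In WT and GILZ TG Clec4n measured 0.16 and 0.11 on the TMM scale and -0.58 and -0.56 on log2(TPM + 0.1), none of them called. Relative to the median of all genes, Clec4n in GILZ KO stood at 0.889 on the TMM scale and 0.765 on log2(TPM + 0.1). The same values were 0.182 and 0.039 in WT and 0.134 and 0.059 in GILZ TG. Clec10a held 11.2, 16.0 and 21.3 TPM in untreated WT and 6.18, 8.98 and 11.8 TPM after LPS, and 8.32, 9.54 and 17.5 TPM against 3.58, 5.24 and 9.42 TPM in GILZ TG. On log2(TPM + 0.1) Clec10a fell by 0.84 in WT (adjusted p = 0.0364) and by 0.98 in GILZ TG (adjusted p = 0.0174), with -0.77 in GILZ KO (adjusted p = 0.0536, limma), whereas on the TMM scale the differences of -0.27, -0.23 and -0.25 were not called. Relative to the median of all genes, Clec10a stood at -0.22, -0.13 and -0.36 on log2(TPM + 0.1). Its libraries overlapped between treatments in WT and GILZ TG and not in GILZ KO, and in GILZ TG its TPM was lower after LPS in 3 of 3 pairs of one replicate number.

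**Figure D4:**
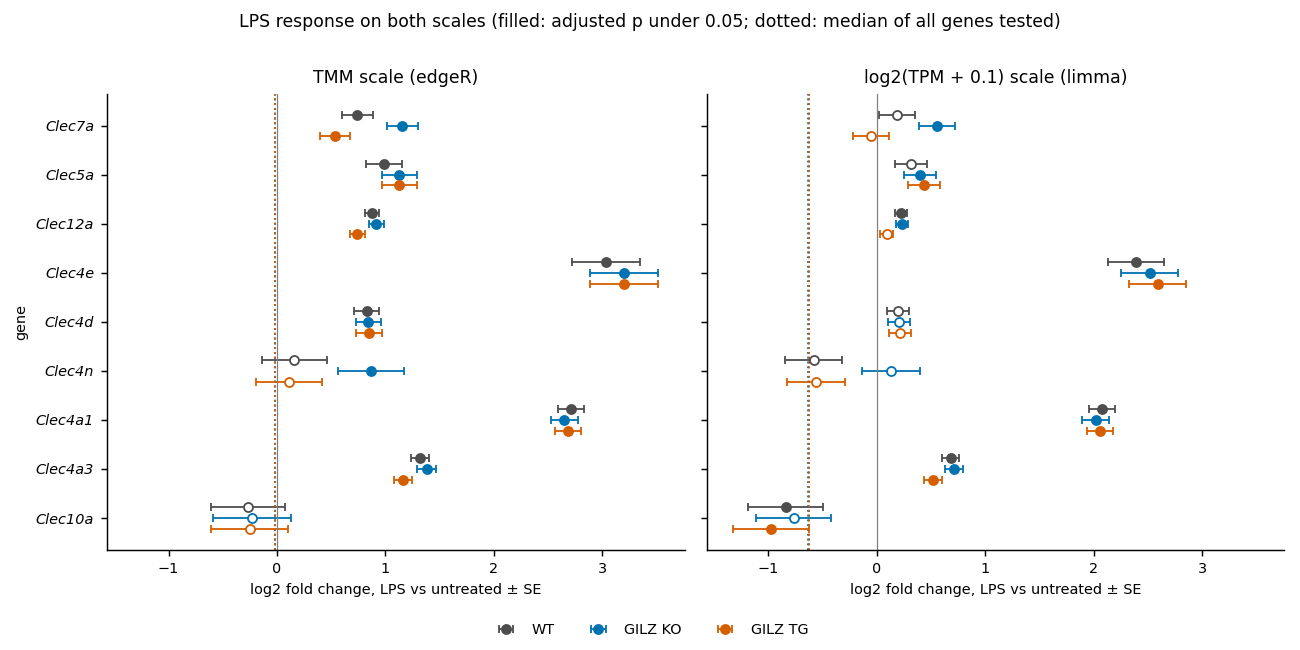
Log2 differences (± SE) between LPS and untreated BMMs for the 9 tested receptors in WT, GILZ KO and GILZ TG, on TMM-scaled counts (edgeR) and on log2(TPM + 0.1) (limma); dotted lines give the median of all genes, near -0.02 and between -0.62 and -0.64. Clec4e and Clec4a1 are far above the median on both scales, Clec7a of GILZ TG turns from 0.53 to -0.05, and Clec10a is below the median on both.

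Whether the response to LPS differed between genotypes was tested as the difference of the log2 fold changes. None of the 9 members was called, against 0.0152% of 13169 genes for GILZ KO against WT, 0.00759% for GILZ TG against WT and 0.121% for GILZ KO against GILZ TG. At an unadjusted p under 0.05 edgeR gave 0, 0 and 1 members, and DESeq2 and limma called 0 in each. Among all 13169 genes, 838, 407 and 1306 had such a p in edgeR. The 1 member was Clec7a, with a response larger by 0.63 in GILZ KO relative to GILZ TG (SE 0.20, adjusted p = 0.234, edgeR). Clec7a gave 0.42 for GILZ KO against WT (adjusted p = 0.789, edgeR) and -0.21 for GILZ TG against WT (adjusted p = 1, edgeR). For Clec4n the difference was 0.71 between GILZ KO and WT (SE 0.43, adjusted p = 0.855, edgeR), so the call in GILZ KO was not shown to be particular to that genotype.

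The adaptors and kinases downstream of these receptors, a list of 19 genes that all passed the filter, gave calls in 1 of the 6 genotype comparisons. In untreated BMMs, Cblb, a ubiquitin ligase that restrains signalling, and Plcg2, a phospholipase, were called higher in GILZ KO relative to GILZ TG (0.49 and 0.22, adjusted p = 0.0204 and 0.0389, edgeR). These were 2 of 19 list genes, against 4.94% of all genes in that comparison. In the other 5 genotype comparisons edgeR called 0 of 19, with 2 to 4 genes at an unadjusted p under 0.05, and DESeq2 called 0 or 1. In those comparisons edgeR called 0.0822% to 2.60% of all genes, and the share called by DESeq2 was not counted. An unadjusted p under 0.05 was found for 1211 and 1780 of 12621 genes untreated and for 1171 to 2328 of 12164 after LPS. After LPS on the TMM scale, 11 rose and 4 fell in WT, 11 and 4 in GILZ KO and 13 and 4 in GILZ TG, where 33.5%, 33.2% and 33.6% of all genes were called higher and 68.6%, 68.5% and 68.7% were called in all. On log2(TPM + 0.1) limma called 7 higher and 9 lower in WT, 7 and 9 in GILZ KO and 8 and 8 in GILZ TG, where 19.8%, 18.8% and 19.4% of all called genes were higher, and the median of the list turned from 0.42 to -0.23 in WT. Malt1, the protease of the Card9 complex, rose by 3.75 in WT on the TMM scale and by 3.11 on log2(TPM + 0.1), and Syk by 1.70 and 1.1. Fcer1g, the adaptor of Clec4e, Clec4d and Clec4n, rose by 0.94 and 0.32. Card9 (-0.86) and the phosphatase gene Inpp5d (-1.43) fell in WT on the TMM scale and also on log2(TPM + 0.1).

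The clustered members lie on the chromosome of the transgene site. Gt(ROSA)26Sor is at 113067428-113077333 of chromosome 6 in GRCm38, 9.84 to 10.2 Mb from the Clec4 genes, 16.3 Mb from Clec12a and 16.4 Mb from Clec7a. Of 152 tested genes between Gt(ROSA)26Sor and Clec7a, 2 were called higher and 1 lower in untreated GILZ TG than in WT (1.97%, against 0.642% of all genes), and of 145 after LPS 0 were higher and 2 lower (1.38%, against 0.460%). In GILZ KO against GILZ TG, 8 were called higher and 5 lower untreated (8.55%, against 4.94% of all genes), and 1 higher and 1 lower after LPS (1.38%, against 2.60%). In GILZ KO against WT, which lacks the transgene, 0 were called higher and 1 lower untreated (0.658%, against 0.0951% of all genes). After LPS 0 were called in that comparison (against 0.0822%). Clec12a is within the interval and is itself counted as called in the untreated comparisons with GILZ TG. Clec7a lies at the end of the interval and is not counted. The part of the transgene's chromosome in the Clec7a and Clec12a results was not tested.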

How the data were processed

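The authors quantified reads per gene against GRCm38/mm10 with the grape-nf pipeline, and deposited expected counts, which need not be whole, and TPM values for each library; the submitters' processing notes also name FastQC 0.11.2 and DESeq2 1.40.2. The deposited comparison tables, with fold changes and p-values of the authors, were used for gene names only; 9 of 10 members were named there, and Clec7a by the annotation. No pair of libraries held identical values.

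Expected counts were rounded and fitted with edgeR 4.0.16 (R 4.3.3; filterByExpr, TMM, glmQLFit, glmQLFTest) on the 9 libraries of a treatment for genotypes and on all 18 for LPS, with Benjamini-Hochberg adjustment over all genes tested (12621, 12164 and 13169) and a threshold of 0.05. Limma 3.58.1 on log2(TPM + 0.1) or log2(TPM + 1), DESeq2 1.42.0, other filters, gene sets and fits, a replicate block and leaving out libraries were alternatives. Fold changes on log2(TPM + pseudocount) understate the change of low genes. The edgeR steps were tested on simulated data. Deviations from the group means correlated above 0.1 between untreated and LPS libraries of one number in 3 of 3 GILZ TG pairs (0.266 to 0.605). These were therefore taken as pairs from the data, not from the labels. The LPS values and p-values of the results come from fits without this pairing, which entered the tests only as the replicate block alternative. Precision is limited by 3 libraries per group and, for Mgl2, by counts of 1 to 24.

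The members, the marker lists (macrophage, neutrophil lineage, dendritic cell, B lineage, stromal, T and NK cell), the signalling list, the list of other lectin receptors and the checks (Tsc22d3, Lyz2, Tnf, Il1b, Nfkbia) were chosen with earlier results of these data known. All members were named, and list genes were named where they passed the threshold. Marker lists were summed in TPM, with no test. For each member, the tested gene with the highest Pearson r of log2 CPM (TMM, prior count 2) over 18 libraries was named. Promoter windows came from RefSeq (GRCm38.p6), and protein sequences were not used here.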

Additional observations from a re-analysis of the deposited data

How the results depend on the processing

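Of 1860 comparisons of single members under alternatives, 1808 stayed on the same side of the threshold. Of these, 133 had a change of sign in a difference called in neither fit. Among the rest, 35 lost a call with the same sign, 15 gained one and 2 lost a call with a change of sign. Those 2 were Clec7a for LPS against untreated in GILZ TG. It measured -0.053 on log2(TPM + 0.1) and -0.052 on log2(TPM + 1), near 0 and not called (adjusted p = 0.778 and 0.773, limma). The number of members called for GILZ TG against WT untreated (2) was 1 under both limma fits, with the genes of the comparison tables alone, with only the 6 libraries, with all 18 libraries and with the replicate block, and 0 without GILZ TG replicates 1 and 2, a setting chosen after seeing the data. For GILZ KO against GILZ TG untreated (2) it was 1 with the genes of the comparison tables and 0 without those libraries. After LPS, GILZ TG against WT (1) gave 2 without a filter, adding Clec5a, and with all 18 libraries, adding Clec4a3. GILZ KO against GILZ TG (1) gave 2 without a filter, adding Clec4n. With the genes of the comparison tables, which lack Clec7a, both gave 0. LPS against untreated in GILZ TG kept 7 calls without those 2 libraries. Leaving out 1 library gave 0 to 0 calls for GILZ KO against WT in both treatments, 0 to 3 and 1 to 4 for GILZ TG against WT and GILZ KO against GILZ TG untreated, 1 to 3 and 0 to 3 after LPS, 7 to 7, 7 to 8 and 7 to 7 for LPS in WT, GILZ KO and GILZ TG, and 0 to 0 for the differences of response.

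Outside GILZ TG the replicate numbers were not taken to pair libraries: deviations of untreated and LPS libraries of one number correlated above 0.1 in 1 of 3 WT pairs (-0.013 to 0.264) and 0 of 3 GILZ KO pairs (-0.033 to 0.095), and those of 2 genotypes in 2 of 18 (-0.136 to 0.241). With the replicate block, LPS in GILZ TG kept the same 7 calls, Clec10a there had an adjusted p of 0.0709 (edgeR), Clec12a for GILZ TG against WT untreated had 0.064 and Clec10a for LPS in WT 0.036. Depth limits Mgl2, with 1 to 24 counts, and Clec4n, with 63 to 167.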

Other observations

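Other lectin receptors of the cells were read from a list of 24 genes, of which 12 were tested untreated, 13 after LPS and 14 over all libraries. None was called between genotypes by edgeR, where 0.0822% to 4.94% of all genes were called. The counts that follow are for GILZ KO against WT, GILZ TG against WT and GILZ KO against GILZ TG. At an unadjusted p under 0.05 edgeR gave 2, 4 and 4 genes untreated and 3, 6 and 8 after LPS. In the same order, edgeR gave such a p for 1211, 1780 and 3106 of all 12621 genes untreated and 1171, 1852 and 2328 of 12164 after LPS. DESeq2 called 0, 2 and 3 list genes untreated and 1, 4 and 4 after LPS. The share of all genes called by DESeq2 was not counted, and the edgeR shares are no background for these calls. After LPS on the TMM scale 10 rose and 1 fell in WT, 9 and 2 in GILZ KO, and 10 and 2 in GILZ TG, where 33.5%, 33.2% and 33.6% of all genes were called higher and 68.6%, 68.5% and 68.7% in all, and on log2(TPM + 0.1) limma called 7 higher and 2 lower, 7 and 2, and 6 and 2, where 19.8%, 18.8% and 19.4% of all called genes were higher. In WT, Cd69, an early activation marker, rose by 9.18 on the log2 scale (TMM), Klrk1 (NKG2D) by 8.04, Olr1, a receptor for oxidised lipoprotein, by 3.87 and Clec2d by 2.80. Clec2i fell by 1.55 on that scale. On log2(TPM + 0.1) the WT values were 8.51 for Cd69, 4.81 for Klrk1, 3.06 for Olr1, 2.16 for Clec2d and -2.315 for Clec2i. Klrk1 and Clec9a, counted among those that rose on the TMM scale, did not pass the filter on low counts in the untreated libraries alone. The filter therefore favoured high values after LPS for them, so their calls are no support, and the size for Klrk1 depends on the scale.

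The gene whose log2 CPM followed each member most closely over the 18 libraries was named among 13168 others. Most of these correlations span the untreated and LPS groups, so the points share treatment, library and depth. Clec4e was nearest to Fas (Pearson r = 0.997), Clec4a1 to H2-Q5 (0.996), Clec12a to Blnk (0.994), Clec4a3 to Cd38 (0.990), Clec5a to Acadl (0.988) and Clec4d to Rab32 (0.983). Clec7a was nearest to Mmp12 (0.963), Clec10a to Ddias (0.908) and Clec4n to Nfe2l2 (0.881).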
